A study of Drosophila melanogaster with 6 samples.

Results

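Glycogen and trehalose are the storage sugars of the fly, and 6 genes of their metabolism, Glycogenin, GlyS, GlyP, Pgm, Tps1 and Treh, were followed through the transcriptomes of sorted midgut progenitor cells. They are 6 of the 15603 genes listed in the expression table. Of these, 5 were found by their symbol, and GlyS was found under its annotation name CG6904 (FBgn0038293). The genes were chosen by their role in this pathway with their FPKM in all 6 libraries, and the ratios of each stressed library to its control, already known, so every value of the members below is a description of these libraries and no value was tested.

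The libraries were made from escargot-positive cells, which are the intestinal stem cells (ISCs) and enteroblasts (EBs) of the Drosophila midgut. Cells were sorted from about 100 guts of 7-day-old flies per sample, with 1 library per condition and therefore no replicates. In the first set, flies spent 2 days at 29 °C, the temperature at which esgGal4ts switches on its transgenes. This set holds a control (w1118, esgGal4ts > +), the aggregating polyglutamine protein HttQ138 (esgGal4ts > HttQ138), an RNAi construct against the Nrf2-like factor CncC (esgGal4ts > CncCRNAi) and both together (CncCRNAi+HttQ138). In the second set, flies spent 4 days at 29 °C and either carried the driver with the empty attP2 site (attP2, esgGal4ts > +) or an RNAi construct against Rpn3, a lid subunit of the 19S particle of the proteasome (Rpn3RNAi). The same esg promoter drove the transgenes and marked the sorted cells, and each condition pooled many guts.

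Glycogen is started by glycogenin, a protein that attaches the first glucose units to itself, and is extended by glycogen synthase (GlyS) from UDP-glucose. Glycogen phosphorylase (GlyP) releases glucose 1-phosphate from its ends, and phosphoglucomutase (Pgm) interconverts glucose 1-phosphate and glucose 6-phosphate, so that it serves synthesis as well as breakdown. Trehalose, the main blood sugar of insects, is made by trehalose-6-phosphate synthase (Tps1), chiefly in the fat body, and is split into glucose by trehalase (Treh).

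The libraries held an estimated 2790000 to 3650000 fragments, and the number of sorted cells ranged from 16611 to 62921. Of all genes, 5047 to 5523 per library reached 10 FPKM (fragments per kilobase of transcript, scaled to the mapped fragments of the library). The progenitor marker esg lay between 287 and 346 FPKM in all 6 libraries. Rpn3 was listed at 45.5 FPKM in w1118 and 71.0 in HttQ138, 37.7 in CncCRNAi and 33.1 in CncCRNAi+HttQ138, and 77.1 in attP2 and 63.2 in Rpn3RNAi, a ratio of Rpn3RNAi to attP2 of 0.820 (95% counting interval 0.704 to 0.954). The cnc gene ranged from 60.7 FPKM in HttQ138 to 82.6 in attP2, with 63.8 in w1118, 64.4 in CncCRNAi, 75.6 in CncCRNAi+HttQ138 and 77.8 in Rpn3RNAi, and was not lower in the libraries labelled CncCRNAi than in w1118 or HttQ138 (ratio of CncCRNAi to w1118 of 1.01, interval 0.922 to 1.11). The level of cnc therefore gives no check of those labels, on which the direction of any difference that involves these libraries rests. Rpn3, which the paper proposes as a direct CncC target, stood in CncCRNAi+HttQ138 at 0.466 of its level in HttQ138 (0.390 to 0.556). Whether this follows from the construct was not tested. The summed level of 14 enterocyte markers ranged from 516 FPKM in w1118 to 8174 in Rpn3RNAi, with 744 in attP2 and 1409 in HttQ138. In Rpn3RNAi, the trypsin genes alphaTry and betaTry held 3867 and 1923 FPKM of this sum. The paper reports induction of protease genes in these same sorted cells. In bulk samples of this kind, fewer cells of a type and less RNA per cell cannot be told apart.

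With Rpn3RNAi, 3 members that build or degrade glycogen were lower than in attP2, namely Glycogenin by 10.2-fold, GlyP by 3.21-fold and GlyS by 3.01-fold, while Pgm was 1.46-fold lower and Treh was 1.31-fold higher. With HttQ138, Glycogenin was instead 2.99-fold higher than in w1118, and Pgm, GlyS and Treh were 1.68-fold, 1.55-fold and 1.47-fold lower. Tps1 was scarce everywhere, and was higher in HttQ138 and in Rpn3RNAi than in the other 4 libraries. The same contrast of HttQ138 in the presence of CncCRNAi gave no ratio of the members above 1.88. Every interval below is a 95% counting interval from the estimated fragments behind the values. It does not cover the variation between flies, guts or libraries.

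Among the genes of synthesis, Glycogenin (FBgn0034603) was listed at 7.91 FPKM in w1118 and 23.7 in HttQ138, 9.73 in CncCRNAi and 13.9 in CncCRNAi+HttQ138, and 29.5 in attP2 and 2.91 in Rpn3RNAi. These levels rest on about 18 fragments in Rpn3RNAi, 55 in w1118 and up to 239 in attP2. The attP2 and HttQ138 libraries were high, Rpn3RNAi was the lowest of all 6, and w1118 and the library labelled CncCRNAi were the only neighbours in the order of levels whose ratio had an interval that reached 1 (1.23, 0.858 to 1.77). The attP2 library held 10.2 times the level of Rpn3RNAi (interval 6.29 to 17.4). Rpn3RNAi also lay below the next lowest library, w1118, which held 2.72 times its level (1.57 to 4.92). In a later annotation the identifier is replaced by the gene Gyg, and a second gene, CG44245, begins at the same place and shares an older name with it, so reads of these 2 genes cannot be told apart here.

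GlyS, the enzyme that elongates the glycogen chain, was listed at 27.6 FPKM in w1118 and 17.8 in HttQ138, 13.8 in CncCRNAi and 14.8 in CncCRNAi+HttQ138, and 24.7 in attP2 and 8.23 in Rpn3RNAi. The controls w1118 and attP2 were the highest and did not differ beyond counting error (ratio of attP2 to w1118 0.895, 0.734 to 1.09), HttQ138 and both libraries labelled CncCRNAi formed a middle group, and Rpn3RNAi was the lowest. GlyS was 3.01-fold lower in Rpn3RNAi than in attP2 (2.22 to 4.12) and 3.36-fold lower than in w1118 (2.48 to 4.61). In HttQ138 it reached 0.644 of the level in w1118 (0.516 to 0.804). In the library labelled CncCRNAi it stood at 0.500 of w1118 (0.393 to 0.632), and adding HttQ138 to that construct gave a ratio of 1.07 (0.827 to 1.39). Both synthesis genes were thus lowest in Rpn3RNAi, whereas in HttQ138 their ratios to w1118 pointed in opposite directions. Within a library, the quotient of GlyS to Glycogenin in FPKM was 3.49 in w1118 and 2.83 in Rpn3RNAi, and lay between 0.753 and 1.42 in the other 4.

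For breakdown, GlyP (FBgn0004507) was listed at 58.8 FPKM in w1118 and 55.7 in HttQ138, 55.1 in CncCRNAi and 56.1 in CncCRNAi+HttQ138, and 117 in attP2 and 36.4 in Rpn3RNAi. The 4 libraries of the first set were indistinguishable by counting error, from 519 to 586 fragments each, attP2 stood above them and Rpn3RNAi below. GlyP was 3.21-fold lower in Rpn3RNAi than in attP2 (2.82 to 3.66). Since attP2 was itself 1.98 times w1118 (1.79 to 2.20), the ratio of Rpn3RNAi to w1118 was 0.618 (0.533 to 0.715). HttQ138 gave 0.946 of w1118 (0.836 to 1.07), and CncCRNAi+HttQ138 gave 1.02 of CncCRNAi (0.904 to 1.15). The quotient of GlyP to GlyS was lowest in w1118, at 2.13, and stood at 4.72 in attP2 and 4.42 in Rpn3RNAi, since both genes were lower by a similar fold in that pair.

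**Figure D1:**
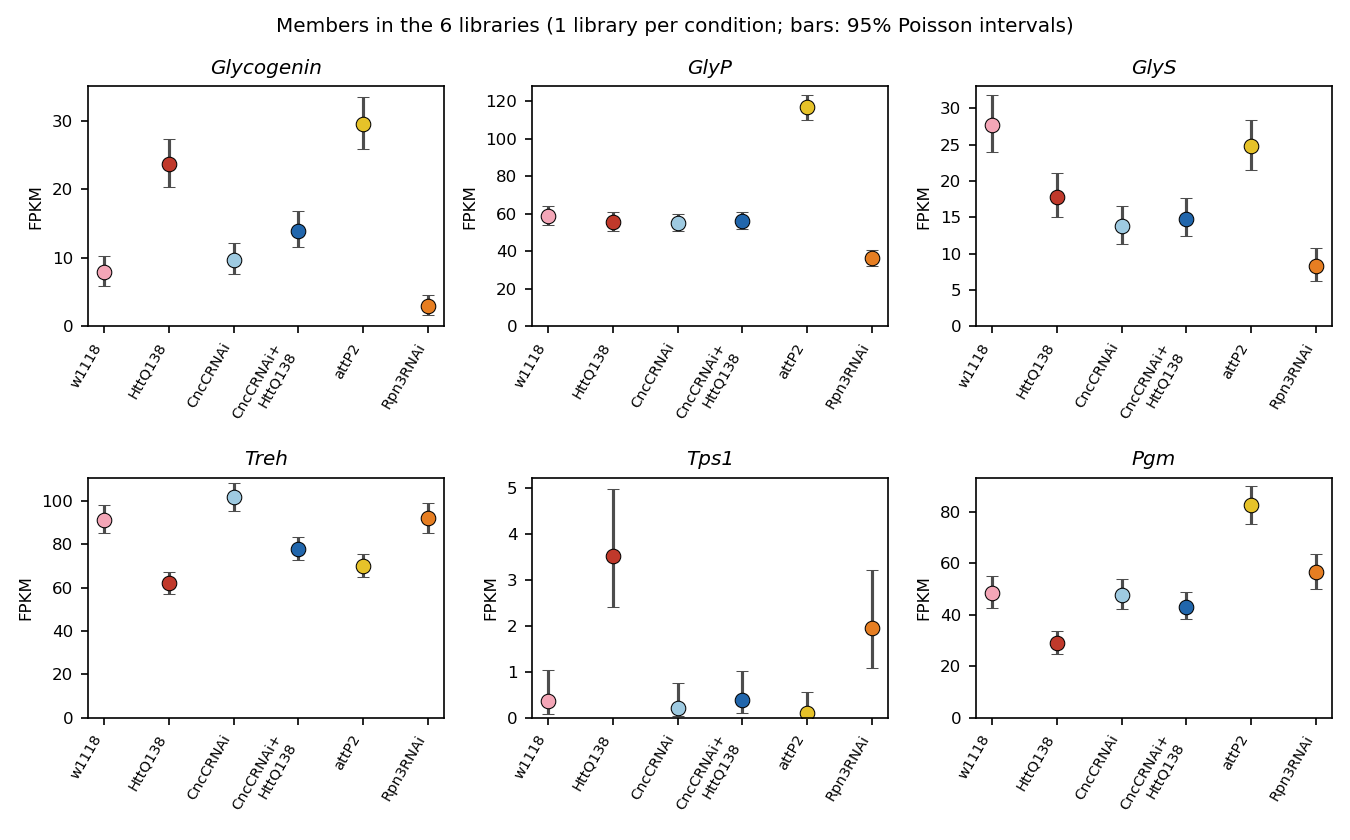
FPKM (y axis, linear from 0, 1 panel per gene) of the 6 members in the 6 libraries (x axis), with 1 point per library and bars for the 95% Poisson interval of the estimated fragments. Glycogenin, GlyP and GlyS have their lowest point in Rpn3RNAi (2.91, 36.4 and 8.23 FPKM), whereas Tps1 stays under 4 FPKM throughout with its highest point in HttQ138.

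Pgm (FBgn0003076), which links both branches to glucose 6-phosphate, was listed at 48.5 FPKM in w1118 and 28.9 in HttQ138, 47.7 in CncCRNAi and 43.1 in CncCRNAi+HttQ138, and 82.4 in attP2 and 56.4 in Rpn3RNAi. HttQ138 was the lowest library and attP2 the highest, and each step between neighbours among the remaining 4 lay within counting error. The ratio of HttQ138 to w1118 was 0.596 (0.486 to 0.729), and with the CncCRNAi construct in both libraries it was 0.903 (0.760 to 1.07). Rpn3RNAi stood at 0.685 of attP2 (0.588 to 0.797) but at 1.16 of w1118 (0.975 to 1.39), so the direction of this difference turned with the control.

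Tps1 (FBgn0027560), the trehalose synthase, was listed at 0.353 FPKM in w1118 and 3.53 in HttQ138, 0.210 in CncCRNAi and 0.395 in CncCRNAi+HttQ138, and 0.101 in attP2 and 1.95 in Rpn3RNAi. These correspond to about 3, 32, 2, 4, 1 and 15 fragments. HttQ138 and Rpn3RNAi stood above the other 4 libraries, which could not be ordered at this depth. The ratio of HttQ138 to w1118 was 9.99 with an interval of 3.13 to 51.0, and that of Rpn3RNAi to attP2 was 19.4 with an interval of 2.99 to 818. CncCRNAi+HttQ138 held 0.112 of the level in HttQ138 (0.0288 to 0.316), and its ratio to CncCRNAi was 1.88 (0.270 to 20.8). Tps1 is best known from the fat body, and markers of other cells were present at low levels in the same libraries. Over 12 visceral muscle markers the summed FPKM ranged from 22.7 in w1118 to 39.2 in HttQ138 and 44.0 in Rpn3RNAi. Most of the sum in w1118 came from Mef2, which was lowest in HttQ138 (16.0) and highest in CncCRNAi (30.7). The other 11 muscle markers summed to 5.32 FPKM in w1118 and 23.1 in HttQ138, 3.91 in CncCRNAi and 3.62 in CncCRNAi+HttQ138, and 9.61 in attP2 and 24.0 in Rpn3RNAi, so that HttQ138 and Rpn3RNAi stood well above the rest. The sum over 10 hemocyte markers was 22.2 FPKM in HttQ138, 14.3 in Rpn3RNAi and 6.30 to 11.9 in the other 4 libraries, and without srp, its most abundant gene, it was 12.7, 9.96 and 3.71 to 5.91. That over 5 Malpighian tubule markers was 15.9 in HttQ138, 28.4 in Rpn3RNAi and 2.33 to 8.05 in the others, and without Irk2, its most abundant gene, it was 8.54, 6.04 and 0.756 to 3.47, so that these 2 libraries were the highest for all 3 lists with or without that gene. HttQ138 and Rpn3RNAi also had the highest sums of enterocyte markers. Most of the HttQ138 sum came from alphaTry, betaTry and gammaTry (614, 231 and 125 FPKM). With Rpn3RNAi left aside, HttQ138 was highest for these trypsin genes, Amy-p and mag, but not for the rest of the list. Ssk, for one, was at 70.2 FPKM in HttQ138 and 131 in CncCRNAi. Without alphaTry, 13 of the enterocyte markers summed to 795 FPKM in HttQ138, 4307 in Rpn3RNAi and 385 to 671 in the others. Without NPF, 10 enteroendocrine markers summed to 201, 162 and 44.5 to 113, but with NPF their sum was highest in w1118 (508). The sum over 11 fat body markers ranged from 18.8 FPKM in HttQ138, with 32.6 in w1118, to 186 in attP2 and 532 in Rpn3RNAi. It was carried by the yolk protein genes Yp1, Yp2 and Yp3, with Lsp1alpha and Fbp2 at 0 in all 6 libraries. These yolk protein genes were each lowest in HttQ138 (4.96, 2.40 and 4.80 FPKM). The most abundant of the other fat body markers, Lsp1gamma, was lowest in w1118 (2.77 FPKM, with 4.68 in HttQ138). The part of these cells in the Tps1 values was not tested.

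Treh (FBgn0003748), the enzyme that releases glucose from trehalose, was the most abundant of the 6 members on the FPKM scale in 5 of the 6 libraries and varied least. It was listed at 91.3 FPKM in w1118 and 62.0 in HttQ138, 102 in CncCRNAi and 77.9 in CncCRNAi+HttQ138, and 70.2 in attP2 and 92.0 in Rpn3RNAi, a 1.64-fold span. The lowest values belonged to HttQ138 and attP2, and w1118 and Rpn3RNAi were indistinguishable (1.01, 0.908 to 1.12). HttQ138 stood at 0.679 of w1118 (0.608 to 0.757) and CncCRNAi+HttQ138 at 0.767 of CncCRNAi (0.697 to 0.843), so Treh was lower with HttQ138 in both backgrounds. Rpn3RNAi was 1.31 times attP2 (1.18 to 1.46), the opposite direction to GlyP in the same pair. As a result the quotient of Treh to GlyP was 0.601 in attP2 and 2.53 in Rpn3RNAi, the lowest and the highest of the 6 libraries. Together the 6 members summed to 235, 192, 228, 206, 324 and 198 FPKM in the order given above, of which Treh and GlyP made the larger part.

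A gene was called when it differed by at least 3-fold and reached 10 FPKM in the higher library, the thresholds used in the study. Members that could be called in a direction are those that reached 10 FPKM in the library that would be higher. In Rpn3RNAi against attP2, 3 of 5 members were called lower (Glycogenin, GlyP and GlyS), with 2.07% of the 5256 such genes called lower, and 0 of 3 were called higher, with 7.37% of 5523 genes called. In HttQ138 against w1118, 0 of 5 were called higher (3.94% of 5047 genes) and 0 of 4 lower (1.85% of 5193). In CncCRNAi+HttQ138 against CncCRNAi, 0 of 5 were called higher (1.31% of 5190 genes) and 0 of 4 lower (1.4% of 5498). At a threshold of 2-fold, Glycogenin was the only member called with HttQ138 (1 of 5 higher, 6.9% of 5047 genes). Tps1 never reached 10 FPKM and could not be called in any comparison. By counting error alone, among the 5 members with at least 10 FPKM in either library, the interval lay above 1 for 1 (Glycogenin, 20.1% of 5148 genes) and below 1 for 3 (GlyS, Treh and Pgm, 29.4%) with HttQ138. With HttQ138 on top of CncCRNAi it lay above 1 for 1 (Glycogenin, 13.6% of 5277 genes) and below 1 for 1 (Treh, 30.2%). With Rpn3RNAi it lay above 1 for 1 (Treh, 20% of 5467 genes) and below 1 for 4 (the other members but Tps1, 33.4%). These shares stand beside the counts for reference only, since the members were chosen with these contrasts known. GlyS with Rpn3RNAi, at 3.01-fold, lay just inside the threshold and Glycogenin with HttQ138, at 2.99-fold, just outside. When each library was scaled to its summed FPKM, GlyP was 2.94-fold and GlyS 2.75-fold lower in Rpn3RNAi, under the threshold, and Glycogenin, at 9.30-fold, was the only member still called. The same scaling put Glycogenin with HttQ138 at 3.12-fold, past the threshold.

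**Figure D2:**
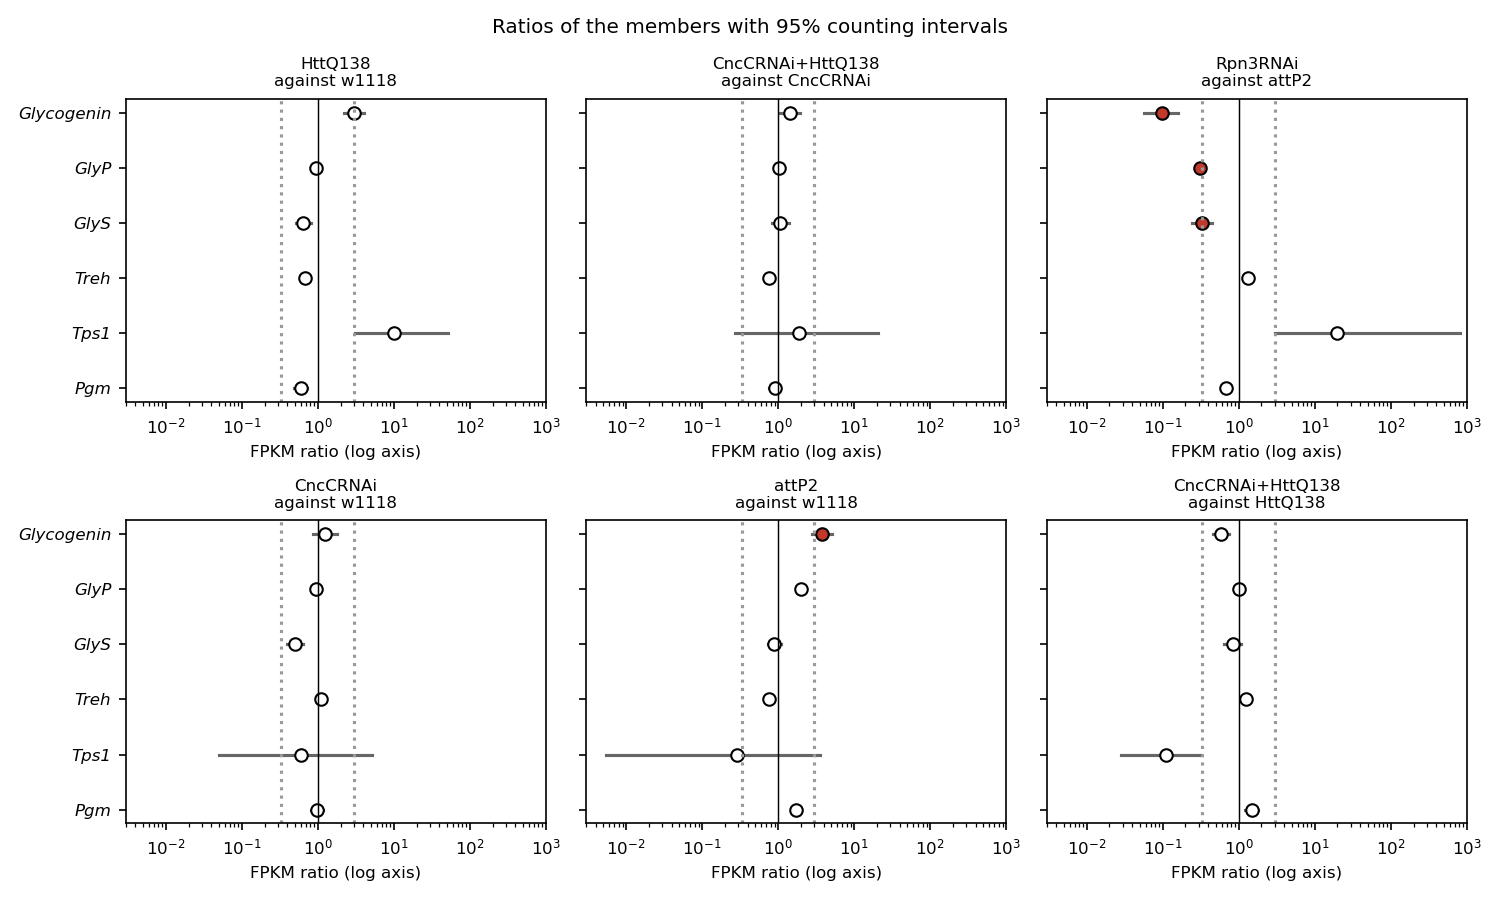
Ratio of FPKM (x axis, log scale) of each member (y axis) in 6 comparisons of 1 library with another, with lines for the 95% counting interval, a solid line at 1, dotted lines at 3-fold either way, and filled points for called members. The filled points are Glycogenin, GlyP and GlyS in Rpn3RNAi against attP2, and Glycogenin in attP2 against w1118, and the intervals of Tps1 are the widest in every panel.

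On the log2 scale of FPKM + 1, the median difference of the 6 members in Rpn3RNAi against attP2 was -1.01, beside -0.03 over the 8344 genes with a mean of at least 1 FPKM in this pair. In HttQ138 against w1118 it was -0.32, beside -0.07 over 8155 genes. In CncCRNAi+HttQ138 against CncCRNAi the 5 members that reached this mean had a median of 0.03, beside -0.14 over 8229 genes. Of the 5864 genes with at least 10 FPKM in attP2 or Rpn3RNAi, 25 had a lower log2 ratio than Glycogenin, 78 a lower one than GlyP and 111 a lower one than GlyS. With HttQ138, 96.3% of such genes had a lower ratio than Glycogenin and 10.1% a lower one than Pgm.

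**Figure D3:**
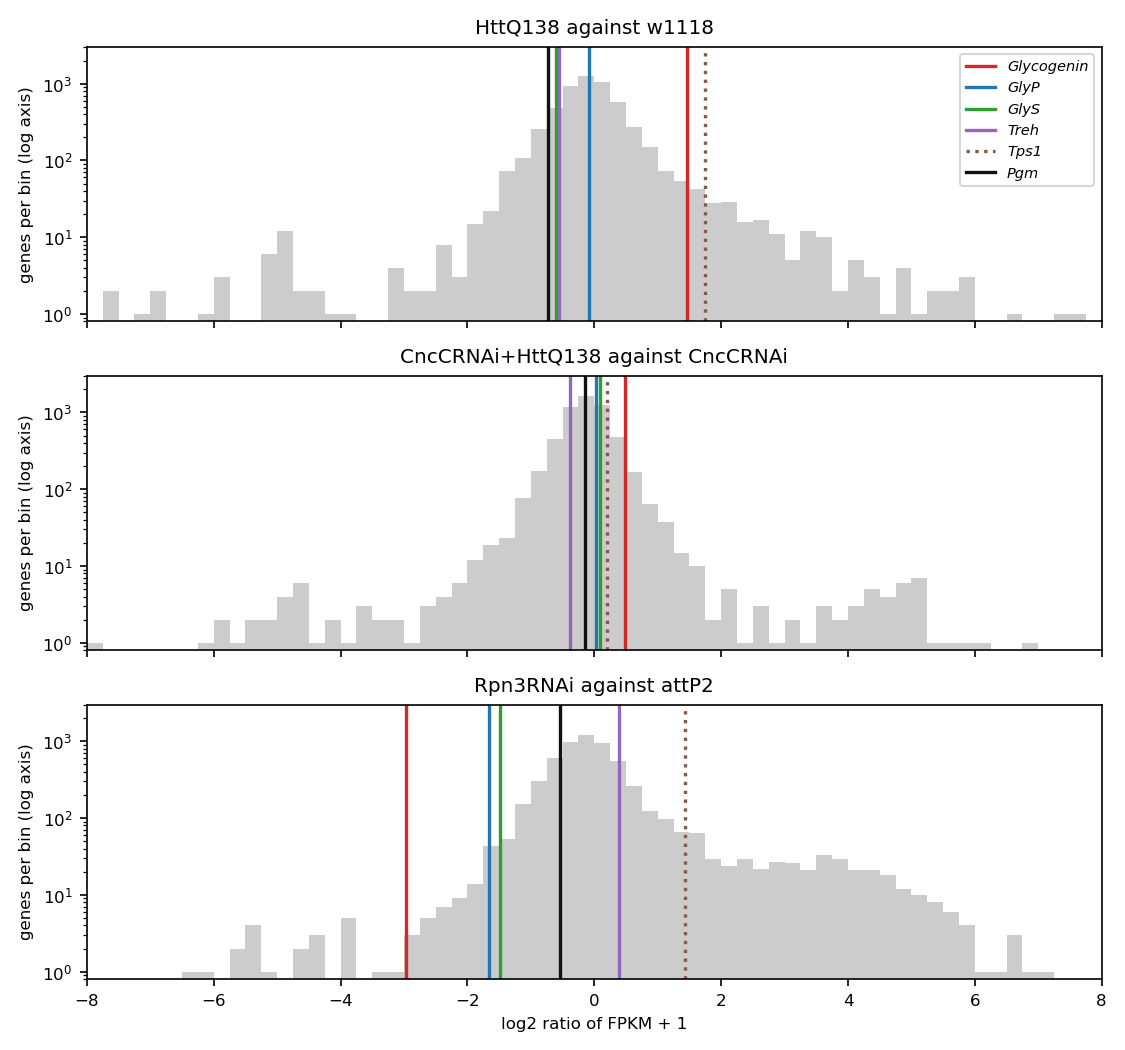
Number of genes (y axis, log scale) by log2 ratio of FPKM + 1 (x axis, bins of 0.25) among genes with at least 10 FPKM in either library of a comparison, with vertical lines at the members and a dotted line for Tps1, which did not reach that level. With Rpn3RNAi, the lines of Glycogenin (-2.97), GlyP (-1.66) and GlyS (-1.48) lie in the sparse left part of the distribution, whereas with HttQ138 Glycogenin (1.47) lies to the right.

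The controls of the 2 sets differed for several members, which bears on every ratio taken against them. In attP2 against w1118, 1 of 5 members was called higher, Glycogenin at 3.73-fold (2.77 to 5.10), with 2.72% of 5256 genes called, and 0 of 4 were called lower (3.2% of 5193). GlyP at 1.98-fold and Pgm at 1.70-fold (1.46 to 1.98) were also higher in attP2, and Treh stood at 0.769 of w1118. Genotype and days at 29 °C cannot be told apart in this pair. Set against w1118 in place of attP2, Rpn3RNAi had 0.368 of the Glycogenin level (0.203 to 0.636), 0.618 of the GlyP level and an equal level of Treh, and GlyS was then the only member called. Set against attP2 in place of w1118, HttQ138 had 0.801 of the Glycogenin level (0.655 to 0.977), opposite in direction to the ratio against its own control. The ratio of Glycogenin in HttQ138 to the library labelled CncCRNAi was 2.43 (1.85 to 3.22). These comparisons share libraries and are not independent of each other.

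In CncCRNAi against w1118, 0 of 4 members were called higher (5.24% of 5498 genes) and 0 of 4 lower (1.77% of 5193). GlyS, at 2.00-fold lower, was called at a threshold of 2-fold (1 of 4, 3.41% of 5193). By the genotypes in the paper, the CncCRNAi flies also carried a y,w1118 chromosome, so construct and background cannot be told apart in this pair. In CncCRNAi+HttQ138 against HttQ138, 0 of 5 members were called higher (1.93% of 5190 genes) and 0 of 5 lower (2.83% of 5047). In that pair Glycogenin stood at 0.590 (0.462 to 0.750) and Pgm at 1.49 (1.22 to 1.83). Whether the ratios of HttQ138 differ with and without the construct was not tested, as there are no replicates.

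Of 31 other genes of the pathway, CG9485, CG5171, CG5177, CG6262, Hex-C, Gbs-70E, Gbs-76A, Tret1-2, Glut1, sut2, sut3, sut4 and AkhR never reached 10 FPKM and could not be called. Per direction, 1.31% to 7.37% of all genes that could be called were called in the stress comparisons. Among the rest of the list, only tobi, a glucosidase gene known to respond to dietary sugar and protein and to hormones, was called in a stress comparison. It was listed at 1.34 FPKM in w1118 and 3.46 in HttQ138, 16.7 in CncCRNAi and 1.55 in CncCRNAi+HttQ138, and 11.8 in attP2 and 189 in Rpn3RNAi. It was thus 16.0-fold higher in Rpn3RNAi than in attP2 (12.8 to 20.3), and its ratio in CncCRNAi+HttQ138 to CncCRNAi was 0.0926 (0.0450 to 0.172). The libraries without a stressor also differed past the threshold for tobi. CncCRNAi held 12.5 times the level of w1118 (6.12 to 29.6), and attP2 8.79 times (4.26 to 21.0). Of the 14 enterocyte markers, 11 were higher and 3 lower in Rpn3RNAi than in attP2, with 9 called higher. Those called included genes of digestive enzymes, such as the maltase gene Mal-A1 (43.5 FPKM in attP2 and 768 in Rpn3RNAi) and the trypsin gene alphaTry (135 and 3867). The 3 that were lower in Rpn3RNAi were Myo31DF, which encodes a myosin (182 and 135), and Tsp2A (77.7 and 56.9) and Ssk (108 and 83.2), whose products belong to the septate junctions. The marker mesh, whose product belongs to the same junctions, was higher in Rpn3RNAi (57.5 and 108). None of the 14 was at 0 in all libraries, and the part of these cells in the values of tobi, Glycogenin, GlyP and GlyS was not tested.

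The remaining enzymes of glycogen gave 0 of 3 called in each stress comparison, where CG9485 could not be called. UGP, which makes the UDP-glucose used by GlyS and was the most abundant of them, was even across libraries, at 40.1 FPKM in w1118 and 36.2 in HttQ138, 37.8 in CncCRNAi and 36.5 in CncCRNAi+HttQ138, and 36.2 in attP2 and 30.8 in Rpn3RNAi. The interval of its ratio reached 1 in all 3 stress comparisons (0.850, 0.695 to 1.04, in Rpn3RNAi against attP2). AGBE, the branching enzyme, stood at 0.467 of attP2 in Rpn3RNAi (0.350 to 0.617), short of the threshold like Pgm and in the same direction as GlyS and GlyP. The attP2 level was itself 1.76 times w1118 (1.37 to 2.28), and AGBE was at 14.1 FPKM in w1118 and 11.5 in Rpn3RNAi. CG9485, the debranching enzyme, was at 4.68 FPKM or less in every library. The other trehalose enzymes, CG5171, CG5177 and CG6262, were all at 2.97 FPKM or less, so Treh was the only abundant gene of trehalose metabolism in these cells.

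Of the 3 enzymes that supply or use hexose phosphates, 0 were called in any stress comparison, where Hex-C could not be called. Hex-A, a hexokinase and the most abundant of them, was listed at 61.4 FPKM in w1118 and 66.5 in HttQ138, 77.7 in CncCRNAi and 73.7 in CncCRNAi+HttQ138, and 73.6 in attP2 and 51.0 in Rpn3RNAi. Pgi, phosphoglucose isomerase, stood at 0.469 of attP2 in Rpn3RNAi (0.402 to 0.546). The attP2 level was itself 1.93 times w1118 (1.68 to 2.23), and Pgi was at 42.4 FPKM in w1118 and 38.4 in Rpn3RNAi. Of 8 regulators of GlyP and GlyS, 0 were called, where Gbs-70E and Gbs-76A could not be called. The 6 with a mean of at least 1 FPKM all had a ratio below 1 in HttQ138 against w1118, as had 4542 of 8155 genes. Their median log2 ratio was -0.48, beside -0.07 over all genes. In the same pair it was -0.55 for ISC and EB markers (7 of 10 lower) and -0.56 for genes of sugar sensing (4 of 6), but 0.54 for 3 sugar transporters. Among the 6 regulators, the interval of PhKgamma reached 1 (0.688 to 1.07). By the mean over the 6 libraries the most abundant was sgg, the fly glycogen synthase kinase 3, at 40.6 FPKM in w1118 and 30.0 in HttQ138, 53.0 in CncCRNAi and 53.5 in CncCRNAi+HttQ138, and 51.1 in attP2 and 53.5 in Rpn3RNAi. HttQ138 held 0.738 of its level in w1118 (0.631 to 0.863). CG7766, a regulatory subunit of phosphorylase kinase, had nearly the same mean and was higher than sgg in both of these libraries, at 48.4 FPKM in w1118 and 36.8 in HttQ138. Of 7 sugar transporters 0 were called, but only Tret1-1 and sut1 reached 10 FPKM in any library. The trehalose transporter Tret1-1, the most abundant, was at 1.47 times w1118 in HttQ138 (1.25 to 1.72). Its level was lowest in w1118, and CncCRNAi without HttQ138 also held 1.56 times that level (1.34 to 1.83). CncCRNAi+HttQ138 held 0.966 of the level in CncCRNAi (0.848 to 1.10). In Rpn3RNAi it was at 0.559 of attP2 (0.481 to 0.648), where attP2 was itself 1.93 times w1118 (1.67 to 2.24). Tret1-1 was at 35.6 FPKM in w1118 and 38.4 in Rpn3RNAi.

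**Figure D4:**
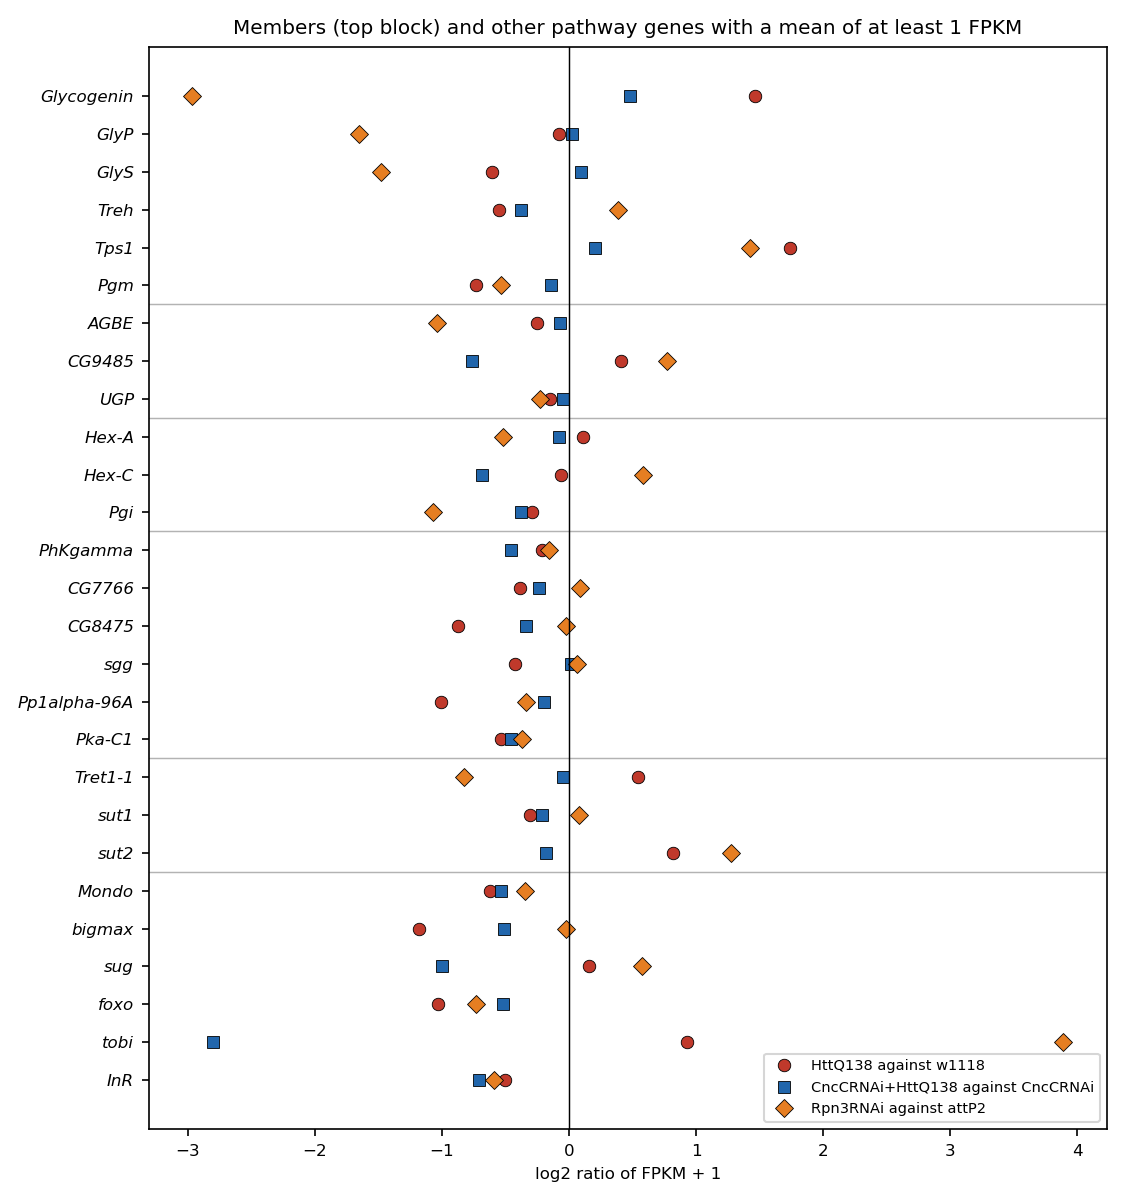
Log2 ratio of FPKM + 1 (x axis) of the members (top block) and of the other pathway genes with a mean of at least 1 FPKM (y axis, 1 gene per row, 1 block per list), with circles for HttQ138 against w1118, squares for CncCRNAi+HttQ138 against CncCRNAi and diamonds for Rpn3RNAi against attP2. Among the diamonds, those of Glycogenin, GlyP and GlyS lie farthest to the left and that of tobi (3.89) farthest to the right, while the square of tobi lies at -2.80.

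For each member, the 3 genes with the nearest profile were taken among 5416 genes with a mean of at least 10 FPKM, by the root mean square difference of centred log2(FPKM + 1) over the 6 libraries. GlyP had Tpi at 0.0768, Gapdh2 at 0.14 and CG4645 at 0.14, well within the spread of 0.489 of its own profile. Tpi and Gapdh2 encode glycolytic enzymes, and Gapdh2 was listed at 524 FPKM in attP2 and 121 in Rpn3RNAi. GlyS was nearest to CG6984 (0.107), btl (0.143) and CG18622 (0.174), where btl encodes a receptor for fibroblast growth factor. Treh, with the flattest profile, was nearest to CG11055 (0.0560), Cpsf160 (0.0582) and CG32442 (0.0625). Pgm was nearest to CG11127 (0.0910), r (0.135) and CG7565 (0.155), where r encodes an enzyme of pyrimidine synthesis. Glycogenin and Tps1 had no close neighbour, with Kaz1-ORFB at 0.454 for Glycogenin and Nplp2 at 0.374 for Tps1, and in attP2 Nplp2 was at 6.85 FPKM against 17.1 in w1118. Differences over 6 libraries that share controls describe likeness only.

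**Figure D5:**
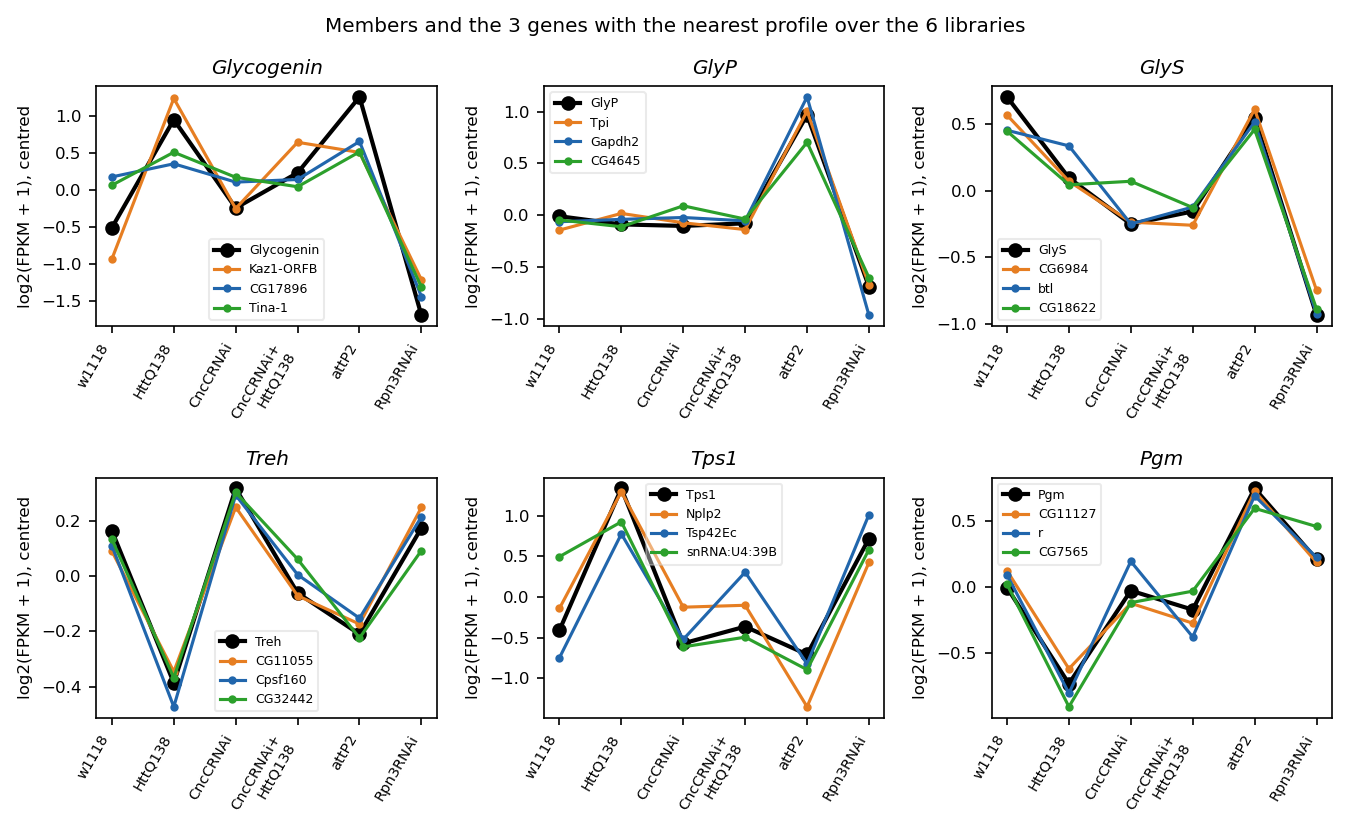
Centred log2(FPKM + 1) (y axis) over the 6 libraries (x axis) of each member (black) and the 3 genes with the nearest profile (coloured), 1 panel per member. The lines of Tpi and Gapdh2 follow GlyP through its high point in attP2 and low point in Rpn3RNAi, whereas the neighbours of Glycogenin depart from it in w1118 or attP2.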

How the data were processed

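Paired-end RNA-seq of 6 libraries was mapped by the authors to the Drosophila genome (release 5.75 as stated in the paper) with the Tuxedo suite, and FPKM per gene were deposited, that is, fragment numbers corrected for transcript length and sequencing depth. Versions of the tools are not given in the sources used here. The values were used as they stand, and all listed columns belong to the 6 samples.

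The reference at hand is of release 6 and gave names, lengths and older identifiers only, so no coordinates are printed. No genome sequence was used, and the planned search of promoters for motifs was not run. Fragments per library were estimated from the steps between low FPKM values of genes with 1 transcript, and fragments per gene from the median transcript length less 154 nt. For genes with several transcripts these counts are approximate. Counting intervals of 95% are exact binomial (Clopper-Pearson) for ratios and exact Poisson for levels, and cover counting error only.

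With 1 library per condition no test across genes was made. Calls took at least 3-fold and 10 FPKM in the higher library, and log2 ratios used a pseudocount of 1, which understates the change of low genes. Alternatives were 2-fold, no minimum, 20 FPKM, pseudocounts of 0.1 and 5, other scalings and other controls. The members and all lists of genes were chosen with earlier results of these data known. All members are named, and from each other list any gene called in a stress comparison, otherwise the most abundant. Genes named beside these (AGBE, CG9485, the other trehalose enzymes, Pgi, CG7766 and single markers) were chosen after their values were seen. The other marker sums were 2038 to 3343 FPKM for 10 ISC and EB genes, 105 to 508 for 11 enteroendocrine genes and at most 3.31 for 8 ovary genes. Python 3.11.15 with numpy 2.4.6, pandas 2.3.3, scipy 1.17.1 and matplotlib 3.10.9 was used. The estimate of depth and the calling of large changes were tested on simulated data. The counting intervals and calls near the threshold were not.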

Additional observations from a re-analysis of the deposited data

How the results depend on the processing

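No paired analysis was possible because each condition has 1 library, and for the same reason no library could be left out. The count of members called in Rpn3RNAi against attP2 was 3, and became 1 (Glycogenin) with FPKM scaled to the library sum, 1 (Glycogenin, at 9.01-fold, with GlyP at 2.85-fold and GlyS at 2.67-fold) with scaling by the median of ratios, and 1 (GlyS) with w1118 as control. The count in HttQ138 against w1118 was 0, and became 1 with either scaling and at 2-fold (Glycogenin) and 1 without a minimum level (Tps1). With no minimum level, Tps1 also brought attP2 against w1118 from 1 to 2 and CncCRNAi+HttQ138 against HttQ138 from 0 to 1. It likewise brought Rpn3RNAi against attP2 from 3 to 4, as a member called higher. At 2-fold, GlyS brought CncCRNAi against w1118 from 0 to 1. A minimum of 20 FPKM changed no count by over 1.5 times.

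Of 36 log2 ratios of members, all 36 kept their direction with pseudocounts of 0.1 and 5, and 34 with each scaling. The turned ratios were GlyP in HttQ138 against w1118 and in CncCRNAi+HttQ138 against HttQ138, Pgm in CncCRNAi against w1118, and GlyS in attP2 against w1118. The scalings moved the median of all genes most in attP2 against w1118, from 0.07 to 0.26 on the log2 scale, and in Rpn3RNAi against attP2 from -0.03 to 0.13. With CncCRNAi as control, GlyS and GlyP in HttQ138 turned to 0.35 and 0.01. The cause of these changes was not tested. Levels under 1 FPKM, as for Tps1 in 4 libraries, rest on 1 to 4 fragments and cannot be ordered.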
